A study of Mus musculus with 18 samples.

Results

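The kidney's megalin and cubilin system was followed through 9 genes: Lrp2, Cubn, Amn, Lrpap1, Dab2, Clcn5, Ocrl, Ctsb and Lgmn. They were taken by gene symbol from a table of 32675 genes, and each symbol matched 1 gene. RNA had been sequenced from the whole right kidney of 18 male wild type C57BL/6 mice, labelled 6-week, in 3 groups of 6. Ctrl mice were handled daily and housed in cages of the same type without defeat. Mice of the PBS and FLX groups met an unfamiliar CD-1 aggressor for 10 min on each of 14 days, a model named chronic social defeat stress (CSDS). Over the same days PBS mice received intraperitoneal phosphate-buffered saline, and FLX mice received fluoxetine, a serotonin reuptake inhibitor, at 10 mg per kg once a day. An injection is described only for the defeated groups, so defeat and injection cannot be told apart in any comparison with Ctrl. The study set aside 1 PBS mouse for excessive expression of inflammatory genes without naming it. PBS replicate 6, with the highest S100a8 and S100a9 levels, was taken as that mouse. Results therefore refer first to 17 mice, and values with all 18 mice stand beside them.

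The proximal tubule takes filtered proteins back from the urine. Megalin, the product of Lrp2, and cubilin, the product of Cubn, are giant receptors of the brush border that bind albumin, vitamin carriers and many small proteins. Amnionless, from Amn, anchors cubilin in the membrane, and the receptor-associated protein, from Lrpap1, is a chaperone that keeps megalin from binding ligands in the endoplasmic reticulum. Dab2 links the receptor tail to clathrin. Clcn5 encodes a chloride and proton exchanger of endosomes and Ocrl a phosphoinositide phosphatase, and loss of either causes tubular proteinuria in people. Cathepsin B, from Ctsb, and legumain, from Lgmn, are proteases that digest the cargo in lysosomes.

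Both receptor genes lie on chromosome 2 of GRCm38, on the minus strand. Lrp2 (ENSMUSG00000027070) spans 69424340 to 69586065 and its longest coding transcript has 15460 bases in 79 exons. Cubn (ENSMUSG00000026726) spans 13276338 to 13491813, with 11262 bases in 67 exons. The other transcripts are shorter, from 1701 bases in Amn to 8390 in Clcn5. The 250 bases before the RefSeq start (GRCm38.p6, minus strand, 5′ to 3′) are shown for the receptor pair and for Lgmn. RNA levels of the receptor pair moved together between mice, and Lgmn had the largest fitted difference. The Lgmn start shown, inside that gene's span, was picked because it held the motif marked in it. Capitals mark GGGCGG, a GC box, in Lrp2 and GTCACGTG, an E-box (CACGTG) with GT before it, in Lgmn.
Lrp2, chr2:69586030-69586279: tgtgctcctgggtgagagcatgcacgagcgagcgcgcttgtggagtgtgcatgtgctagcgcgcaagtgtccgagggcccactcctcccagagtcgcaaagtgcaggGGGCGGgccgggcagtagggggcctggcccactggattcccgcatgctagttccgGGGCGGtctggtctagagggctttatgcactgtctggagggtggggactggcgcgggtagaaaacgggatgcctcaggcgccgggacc
Cubn, chr2:13491877-13492126: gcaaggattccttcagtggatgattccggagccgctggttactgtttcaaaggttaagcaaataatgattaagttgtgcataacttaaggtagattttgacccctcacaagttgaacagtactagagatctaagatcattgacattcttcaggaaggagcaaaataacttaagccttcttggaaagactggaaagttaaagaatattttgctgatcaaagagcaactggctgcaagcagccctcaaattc
Lgmn, chr12:102439093-102439342: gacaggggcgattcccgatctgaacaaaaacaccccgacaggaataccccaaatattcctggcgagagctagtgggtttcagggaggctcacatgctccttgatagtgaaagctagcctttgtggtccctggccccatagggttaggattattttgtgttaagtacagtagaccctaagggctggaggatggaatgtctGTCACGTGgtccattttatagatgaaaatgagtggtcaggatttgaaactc
The Lrp2 promoter held 2 GC boxes, which began 143 and 88 bases before the start, and 66.4% of its bases were G or C. The Cubn promoter held none of the 7 motifs searched on both strands, and 39.6% of its bases were G or C. The GC box was found in 32.7% of 32851 promoters of the same length. The longer E-box form, which contains the shorter one, was found in 1.85% of promoters, among them that of Amn. It was also found at the Lgmn start shown here, 51 bases before it, but that start was picked for this match. A second Lgmn start held 2 GC boxes and no E-box. In all, 8 of the 9 genes had an entry, with 11 starts.

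Levels are given as FPKM, a fragment count scaled for transcript length and library size, which lets genes be set side by side. On this scale long transcripts still differed from short ones between libraries, by a score described below. The order of genes of unlike length is therefore approximate. In Ctrl kidneys Lgmn had the highest level at 229 ± 25.7 FPKM (SD, n = 6), followed by Lrpap1 at 116 ± 10.5. Ctsb followed at 84.8 ± 4.93, Lrp2 at 68.0 ± 13.5, Amn at 54.8 ± 6.61 and Dab2 at 38.5 ± 7.11. Cubn stood at 16.2 ± 3.08, Clcn5 at 5.51 ± 1.04 and Ocrl at 1.49 ± 0.313. The ranges of Ctsb and Lrp2, of Lrp2 and Amn, and of Amn and Dab2 overlapped between mice, and the other neighbours in this order did not overlap. Lrp2 RNA thus stood above Cubn RNA in every Ctrl mouse, while the proteases and the chaperone stood at the top. Among 20251 genes tested, Lgmn held rank 188 by Ctrl mean and Ocrl rank 10666. Genes on the opposite strand overlap Cubn, Dab2 and Ctsb. Those at Cubn and Dab2 reached at most 0.239 FPKM, whereas Fdft1, which overlaps Ctsb, reached 16.1 FPKM. Libraries marked strand, but the sources do not say whether the counting used it.

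**Figure D1:**
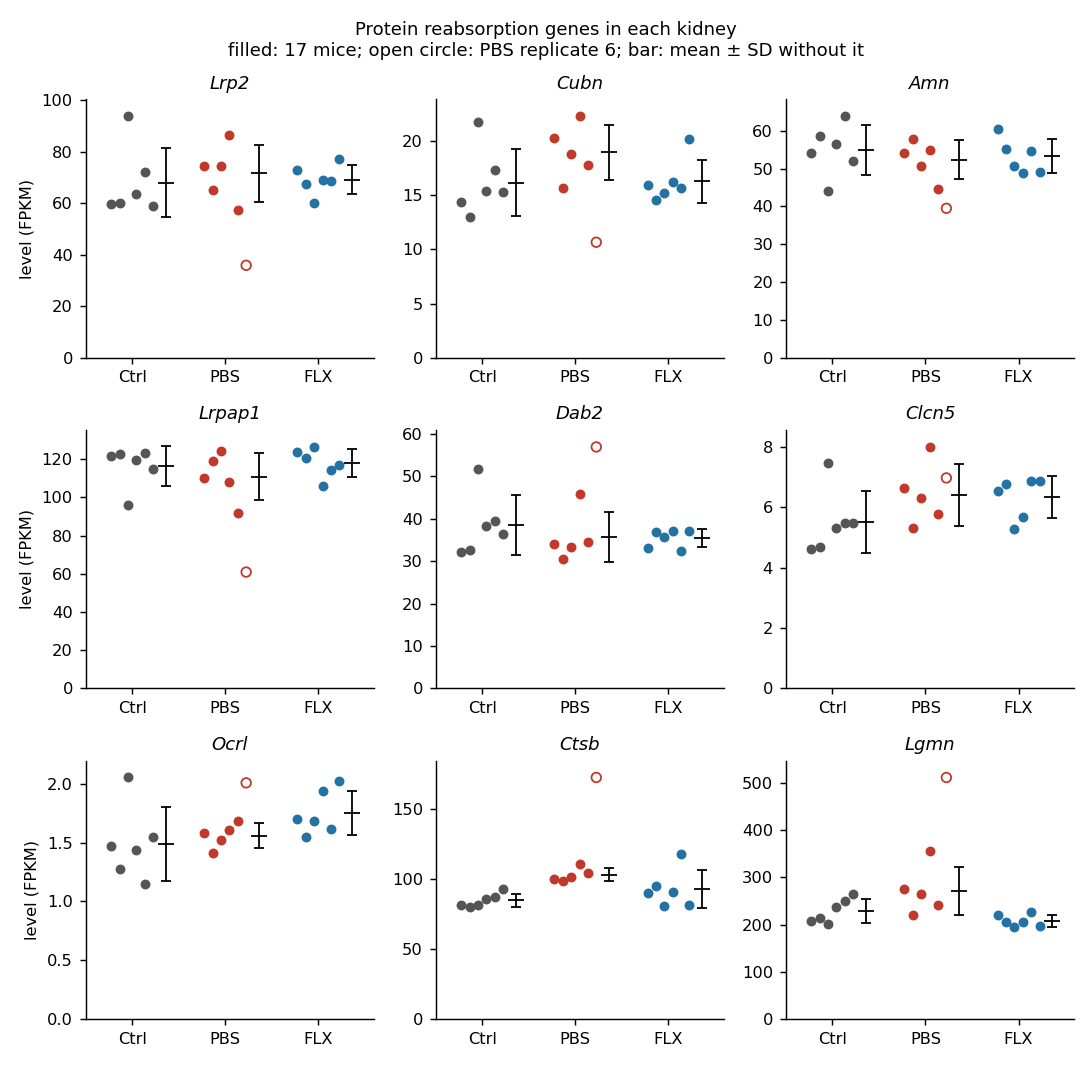
FPKM of each gene (vertical axes, from 0) in each mouse by group. Points are mice, the open circle is PBS replicate 6, and bars give the mean ± SD over 6 Ctrl, 5 PBS and 6 FLX mice. Ctsb is the panel in which the PBS mice (99.0 to 111 FPKM) lie wholly above the Ctrl mice (79.8 to 93.1).

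The kidneys expressed proximal tubule markers strongly, and all 12 markers fixed for this cell type were detected. Their summed level was 3947 to 4649 FPKM in Ctrl, 3559 to 4222 in the 5 PBS mice and 3800 to 4189 in FLX. Bulk RNA cannot tell fewer cells of a type from less RNA per cell. Total counts were 72149987 to 79061296 in 14 mice and 48928823 to 52073640 in FLX replicates 3 to 6. A library property also differed between mice. It is described by a long-transcript score, the median log2 deviation of 462 genes with transcripts over 8000 bases minus that of 2953 genes under 2000 bases, none of them a gene named in the lists used here. The score was 0.706 in Ctrl replicate 3, between -0.353 and -0.157 in the other 5 Ctrl mice, between -0.184 and 0.245 in PBS mice and between -0.052 and 0.357 in FLX mice. Its values stand beside the results they move with.

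The first comparison asked whether CSDS changed the reabsorption genes. None of the 9 genes passed an adjusted p of 0.05 in PBS versus Ctrl (edgeR's quasi-likelihood test with Benjamini-Hochberg adjustment over 20251 genes), where 3.81% of all genes tested were called. At an unadjusted p under 0.05 there were 2 of the 9, Ctsb and Lgmn, against 17.9% of all genes. DESeq2 called Ctsb alone, where it called 6.98% of all genes, and with all 18 mice edgeR called none of the 9 and 4.28% of all genes. The median log2 fold change of the 9 genes was 0.09, against -0.0078 over all genes. The lowest p was that of a lysosomal protease, with Ctsb at 103 ± 4.69 FPKM in PBS (SD, n = 5) and 84.8 ± 4.93 in Ctrl (SD, n = 6). The order of the differences depended on Ctrl replicate 3, without which the log2 fold change was 0.33 for Cubn (adjusted p = 0.072), 0.32 for Clcn5 (0.092), 0.27 for Ctsb (0.074) and 0.21 for Lgmn (0.28), in a fit of edgeR that called 8.27% of all genes.

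The Ctsb level was 79.8 FPKM in the lowest Ctrl mouse, 83.7 at the median and 93.1 in the highest. PBS replicates 1 to 5 had 100.2, 99.0, 101, 111 and 105 FPKM. Thus 5 of 5 PBS mice lay above every Ctrl mouse, an arrangement in the same direction seen for 1.77% of all genes. The fitted log2 fold change was 0.29 (SE 0.09, 95% interval 0.10 to 0.48, adjusted p = 0.084, edgeR). An exact permutation test on log2(FPKM + 0.1) gave P = 0.00433, the smallest that 6 against 5 mice allow, and 0.117 after adjustment over the 27 tests of the 9 genes in 3 comparisons. With all 18 mice the log2 fold change was 0.43 (adjusted p = 0.057). PBS replicate 6 also lay above every Ctrl mouse, but the share of all genes so arranged in 18 mice was not counted. Over the alternatives tried the adjusted p ran from 0.033 to 0.217. It passed with DESeq2 (0.033) and without FLX replicate 5 (0.034, where 4.26% of all genes were called). The difference was 0.27 without the 2 mice of the highest long-transcript score and 0.30 with the score as a covariate.

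Legumain is a cysteine endopeptidase that cuts after asparagine. The Lgmn level ran from 200.4 to 265 FPKM in Ctrl, with a median of 225. PBS replicates 1 to 5 had 275, 221, 265, 355 and 241 FPKM. The groups overlapped, and 3 of 5 PBS mice lay above every Ctrl mouse. The log2 fold change was 0.26 (SE 0.12, 95% interval 0.01 to 0.51, adjusted p = 0.26), and with all 18 mice it was 0.44 (adjusted p = 0.13). Lgmn therefore missed the threshold with either set of mice. Without PBS replicate 4, the highest of the 5, the log2 fold change was 0.12 (adjusted p = 0.66).

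Among the receptor genes, Lrp2 ran from 58.8 to 93.7 FPKM in Ctrl, with a median of 61.8, and the highest value was that of Ctrl replicate 3. PBS replicates 1 to 5 had 74.5, 65.0, 74.6, 86.7 and 57.6 FPKM. The log2 fold change was 0.09 (SE 0.12, 95% interval -0.17 to 0.35, adjusted p = 0.76), and it was -0.04 with all 18 mice. It ran from -0.0087 without PBS replicate 4 to 0.18 without Ctrl replicate 3. Cubn ran from 12.95 to 21.7 FPKM in Ctrl, with a median of 15.3, again highest in Ctrl replicate 3. PBS replicates 1 to 5 had 20.3, 15.6, 18.8, 22.3 and 17.7 FPKM. The log2 fold change of Cubn was 0.24 (SE 0.12, 95% interval -0.01 to 0.49, adjusted p = 0.30), and 0.13 with all 18 mice. It was 0.16 without PBS replicate 4 (adjusted p = 0.61). Both receptors overlapped between the groups.

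The genes that serve the receptors were also measured in both groups. Amn was at 54.8 ± 6.61 FPKM in Ctrl and 52.4 ± 5.08 in PBS (SD, n = 6 and n = 5). Lrpap1 was at 116 ± 10.5 and 110.8 ± 12.3, and Dab2 at 38.5 ± 7.11 and 35.6 ± 5.88. Their 95% intervals reached from -0.34 to 0.17 on the log2 scale and adjusted p was at least 0.74. The endosomal genes Clcn5 (5.51 ± 1.04 in Ctrl, 6.40 ± 1.03 in PBS) and Ocrl (1.49 ± 0.313 and 1.56 ± 0.104) had log2 fold changes of 0.23 and 0.08 (adjusted p = 0.35 and 0.76, edgeR). With each mouse left out these ran from 0.12 (without PBS replicate 4) to 0.32 for Clcn5 and from 0.026 (without Ctrl replicate 5) to 0.18 (without Ctrl replicate 3) for Ocrl.

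RNA of some markers of other cell types differed between these groups as well. Of 11 markers of injured tubules, Spp1 and Clu were higher in PBS (log2 fold changes 0.91 and 0.98, both called), and the summed level was 458 to 729 FPKM in Ctrl and 820 to 1220 in the 5 PBS mice. Of 8 neutrophil markers tested, S100a8, S100a9 and Ngp were higher, with a sum of 1.56 to 3.56 FPKM in Ctrl, where Ngp and Camp were at 0 in every mouse, and 7.34 to 26.5 in PBS. Ctsb and Lgmn are also expressed by macrophages. None of 10 macrophage markers was called by edgeR or DESeq2 or had an unadjusted p under 0.05, and their sum was 69.2 to 90.3 FPKM in Ctrl and 74.9 to 104 in PBS. Some segment markers of the proximal tubule differed too. Of 6 markers of the S3 segment, its straight end, Slc5a1 was higher in PBS (log2 fold change 0.35, called), while the other 5 had negative log2 fold changes and the median of the list was -0.42. At an unadjusted p under 0.05 there were 5 of the 6, and DESeq2 called Slc5a1 higher and 2 others lower. The sum of the list was 1005 to 1521 FPKM in Ctrl and 824 to 1135 in PBS. The 6 markers of the S1 and S2 segments had a median of 0.14, and none was called by edgeR or DESeq2 or had an unadjusted p under 0.05. Among the other lists, all 5 podocyte markers had positive log2 fold changes and an unadjusted p under 0.05, with a median of 0.34, none called by edgeR and 1 by DESeq2. Of 8 brown fat markers Elovl3 was called higher, with a median of 1.84 and a sum of 37.5 to 153 FPKM in Ctrl and 67.5 to 951 in PBS. Calb1 of 8 markers of the loop, distal tubule and collecting duct and Gatm of the 12 proximal tubule markers were also called higher (log2 fold changes 0.95 and 0.73), and none of 5 endothelial markers was called by either tool or had an unadjusted p under 0.05. The part of these cells and segments in the Ctsb and Lgmn values was not tested.

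The second comparison asked whether fluoxetine altered the genes in defeated mice. None of the 9 genes passed in FLX versus PBS, where 0.726% of all genes were called. At an unadjusted p under 0.05 there were 3, Lgmn, Ctsb and Cubn, all lower in FLX, against 11.1% of all genes. DESeq2 called Lgmn alone, where it called 2.46% of all genes, and with all 18 mice edgeR called none of the 9 and 0.557% of all genes. The median log2 fold change of the 9 genes was -0.11, against -0.0027 over all genes. This comparison and the first share the 5 PBS mice, so a high value in those mice enters both with opposite signs.

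Lgmn had the largest difference. FLX mice had 196 FPKM at the lowest, 205 at the median and 227 at the highest, and 5 of 6 lay below every PBS mouse. The log2 fold change was -0.48 (SE 0.12, 95% interval -0.73 to -0.23, adjusted p = 0.074, edgeR). On log2(FPKM + 0.1) the difference in means was smaller, -0.36, and the exact permutation test of it gave P = 0.00866, and 0.117 after adjustment over the 27 tests. Over all genes the median difference in FLX versus PBS was 0.076 by limma on log2(FPKM + 0.1) and -0.0027 by edgeR. FPKM levels and fitted log2 fold changes are thus offset in this comparison. With all 18 mice the log2 fold change was -0.66 (adjusted p = 0.063). The adjusted p passed with DESeq2 (0.0086) and without Ctrl replicate 3 (0.043, where 1.24% of all genes were called). It also passed without PBS replicate 2 (0.045, where 0.648% were called), and it ran from 0.0086 to 0.82 over all alternatives. PBS replicate 4, with 355 FPKM, carried part of the difference, which was -0.34 without that mouse (adjusted p = 0.21). In the same comparison Clu of the injured tubule markers and S100a8 of the neutrophil markers fell (log2 fold changes -0.69 and -3.14, both called), and in FLX these lists summed to 595 to 1015 and 0.514 to 5.92 FPKM. The macrophage sum was 55.0 to 168 FPKM in FLX, with none of 10 markers called by edgeR or DESeq2 and 3 at an unadjusted p under 0.05. The part of these cells in the Lgmn value was not tested.

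Ctsb in FLX ran from 81.1 to 118 FPKM, with a median of 90.4. FLX replicate 5 was the highest of the 17 mice, and the other 5 FLX mice lay below every PBS mouse. The log2 fold change was -0.25 (SE 0.09, 95% interval -0.44 to -0.06, adjusted p = 0.26). Cubn in FLX ran from 14.6 to 20.1 FPKM, with a median of 15.8, and had a log2 fold change of -0.32 (SE 0.12, 95% interval -0.57 to -0.07, adjusted p = 0.28). With the long-transcript score as a covariate the Cubn difference was -0.37 and passed the threshold (adjusted p = 0.043), in a fit that called 1.43% of all genes. It was -0.38 (adjusted p = 0.10) without the 2 mice of the highest score and -0.20 (adjusted p = 0.67) with all 18 mice. The call for Cubn thus rested on 1 way of treating the libraries, chosen after the data were seen.

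Markers of the segments where the receptors act also differed between FLX and PBS. Of 6 S1 and S2 markers, Slc6a19, a transporter of neutral amino acids, fell by 0.69 on the log2 scale and was called. Another 4 had an unadjusted p under 0.05, and the median of the list was -0.45. Its sum was 339 to 453 FPKM in FLX and 389 to 483 in PBS. The 6 S3 markers had a median of 0.37, with none called by edgeR, 4 at an unadjusted p under 0.05 and 1, lower in FLX, called by DESeq2. The part of the segments in the Cubn, Ctsb and Lgmn values was not tested.

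Lrp2 in FLX ran from 60.0 to 77.0 FPKM, with a median of 68.7, and overlapped the PBS mice throughout. Its log2 fold change was -0.15 (SE 0.12, 95% interval -0.41 to 0.11, adjusted p = 0.74). Amn, Dab2, Lrpap1, Clcn5 and Ocrl had log2 fold changes between -0.11 and 0.07, with adjusted p of at least 0.82. The Lrp2 value was -0.05 without PBS replicate 4.

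The third comparison set FLX against Ctrl, which differ in defeat, injection and drug. None of the 9 genes passed, where 3.67% of all genes were called, and none had an unadjusted p under 0.05, against 20.4% of all genes. DESeq2 called none of them either, against 7.97% of all genes, nor did edgeR with all 18 mice, against 1.77%. The largest log2 fold changes were -0.22 for Lgmn (SE 0.11, 95% interval -0.46 to 0.02), -0.20 for Dab2 and 0.15 for Ocrl, with adjusted p of 0.28, 0.32 and 0.42 in edgeR. Lrp2 differed by -0.06 (95% interval -0.31 to 0.19) and Cubn by -0.07 (95% interval -0.31 to 0.17). Every one of the 9 genes overlapped between FLX and Ctrl, but the share of all genes that did so was not counted.

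**Figure D2:**
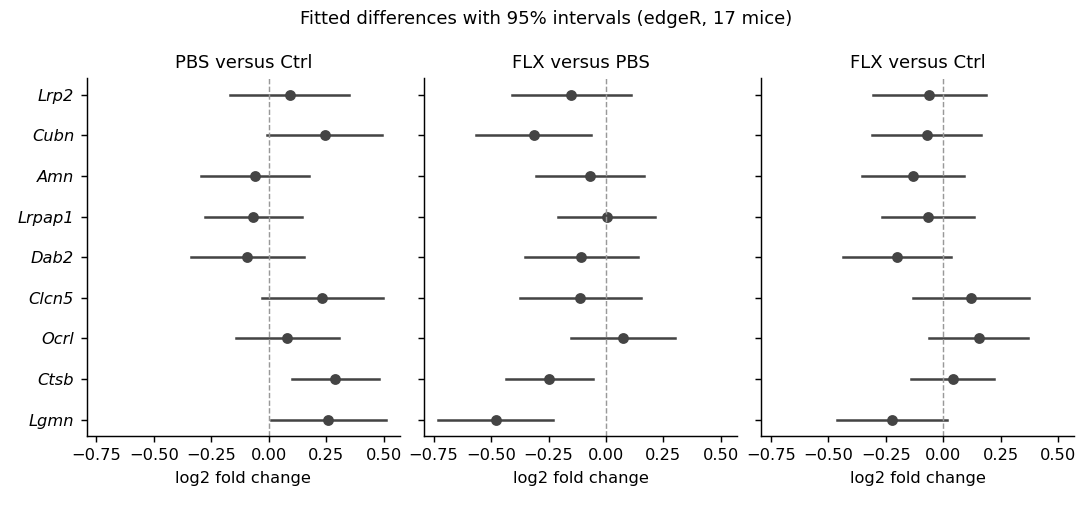
Fitted log2 fold changes (horizontal axes) of the 9 genes in the 3 comparisons over 17 mice, with dots for the estimate and lines for the 95% interval before adjustment for multiple testing. Only Ctsb and Lgmn in PBS versus Ctrl, and Cubn, Ctsb and Lgmn in FLX versus PBS, have an interval clear of 0.

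The widest departures were seen in a single kidney. PBS replicate 6 had 35.9 FPKM of Lrp2, against 57.6 to 93.7 in the other 17 mice, and 10.7 FPKM of Cubn, against 12.95 to 22.3. Both receptors were thus below every other mouse, with Lrp2 at 0.501 and Cubn at 0.563 of the mean of the other 5 PBS mice. Lrpap1 (60.9 FPKM, against 92.1 to 126) and Amn (39.5, against 44.2 to 63.8) were also below all 17. The proteases stood at the other end, with 173 FPKM of Ctsb, against 79.8 to 118, and 511 FPKM of Lgmn, against 196 to 355. Dab2 was at 56.9 FPKM, above the 30.5 to 51.7 of the others, while Clcn5 and Ocrl lay inside their ranges. With respect to the PBS mean, receptors and chaperone were low while adaptor and proteases were high in the same library.

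**Figure D3:**
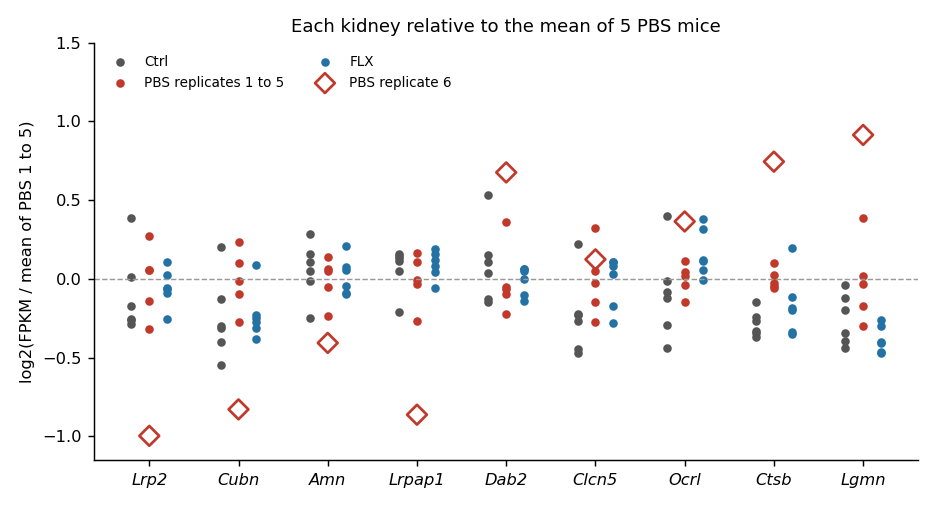
Each mouse relative to the mean of PBS replicates 1 to 5 on a log2 scale (vertical axis) for the 9 genes. The diamond is PBS replicate 6, which lies below all other mice for Lrp2, Cubn, Amn and Lrpap1, above all for Dab2, Ctsb and Lgmn, and among them for Clcn5 and Ocrl. The share of all genes so placed was not counted.

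This was 1 mouse, so no test was made and none of these values belongs to a group. The same library had the lowest sum of the 12 proximal tubule markers, 2186 FPKM against 3559 to 4649 in the others, and 206 FPKM of the S3 segment markers, against at least 824. Markers of the S1 and S2 segments summed to 475 FPKM, inside the range of the PBS mice (389 to 483). The injured tubule markers reached 4397 FPKM against at most 1220, with Havcr1, which encodes kidney injury molecule 1, at 9.75 FPKM against at most 2.40, and Lcn2 at 49.2 FPKM. The macrophage sum was 108 FPKM, above the other PBS mice (74.9 to 104) and inside the range of FLX mice (55.0 to 168). The part of these cells in the 9 genes was not tested.

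The receptor genes varied together across mice. Over the 17 mice, Pearson's r of Lrp2 with Cubn on log2(FPKM + 0.1) was 0.82 (permutation P = 6e-05, adjusted over 8 relations 0.00028) and Spearman's rho was 0.77 (permutation P = 0.00059, adjusted 0.0024). Without Ctrl replicate 3 and PBS replicate 4, the mice farthest from the Lrp2 median, r was 0.67 (adjusted permutation P = 0.028). It was 0.86 on deviations from the group means, 0.81 in the 13 mice with over 60000000 counts and 0.87 in all 18 mice. The FLX mice with fewer counts were too few for a value of their own. Lrp2 with Clcn5 gave a similar r of 0.82 (permutation P = 7e-05, adjusted 0.00028) and rho of 0.76 (permutation P = 0.00056, adjusted 0.0024), with 0.72 without the 2 farthest mice, 0.83 in the 13 mice and 0.35 in all 18 mice (adjusted permutation P = 0.20). In all 18 mice rho of Lrp2 with Clcn5 was 0.55 (permutation P = 0.019, adjusted 0.076), so the relation missed the threshold once PBS replicate 6 was included.

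Lrp2 was not seen to follow its partners in the same way. With Amn, r was -0.14 and rho -0.07 (permutation P = 0.60 and 0.80, adjusted 0.63 and 0.80), and with Lrpap1, r was -0.27 and rho -0.14 (permutation P = 0.30 and 0.59, adjusted 0.44 and 0.79). Both had positive r in all 18 mice, 0.37 and 0.56, which rested on PBS replicate 6. With Dab2, r was 0.69 and rho 0.43 (permutation P = 0.0030 and 0.087, adjusted 0.0080 and 0.23), but r was 0.16 without the 2 farthest mice and -0.13 in all 18, so the relation rested on single mice. For Ctsb, Lgmn and Ocrl, r with Lrp2 lay between 0.13 and 0.41, with adjusted permutation P of at least 0.21. The pair of proteases varied together, with r = 0.62 and rho = 0.66 over 17 mice (permutation P = 0.0073 and 0.0045, adjusted over 10 relations chosen after the data were seen 0.0092 and 0.011), 0.64 without the 2 farthest mice and 0.71 in the 13 mice.

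Library composition moved with these levels. The 3 genes with the longest transcripts, Lrp2, Cubn and Clcn5, were all high in Ctrl replicate 3, the library of the highest long-transcript score. The 3 with the shortest, Amn, Lgmn and Lrpap1, were at their lowest Ctrl level there. Over 17 mice, r with the score was 0.87 for Ocrl and 0.79 for Clcn5 (rho 0.91 and 0.84, permutation P = 1e-05 and 0.00017 for r, 1e-05 and 9e-05 for rho, adjusted at most 0.00085), where 1e-05 is the smallest P that the resamples can give. They remained at 0.82 and 0.74 without the 2 mice farthest from the median score, Ctrl replicates 2 and 3, and were 0.87 and 0.82 in the 13 mice. For Lrp2 and Cubn r was 0.71 for each (rho 0.56 and 0.69), and for Amn and Lrpap1 -0.68 and -0.67 (rho -0.58 and -0.62), with adjusted permutation P of 0.0034 to 0.032. In the 13 mice these 4 values were 0.73, 0.74, -0.66 and -0.75. Without the 2 mice farthest from the median score they were 0.48, 0.54, -0.50 and -0.50, each with an adjusted permutation P of 0.098. Without Ctrl replicate 3 alone they were 0.53, 0.63, -0.54 and -0.52 (adjusted permutation P = 0.049, 0.032, 0.049 and 0.049). For Dab2 r was 0.65 and rho 0.45 over 17 mice (adjusted permutation P = 0.0092 and 0.092), and r was 0.29 without the 2 farthest mice and 0.35 without Ctrl replicate 3, so this relation rested on that mouse. For Ctsb and Lgmn r with the score was 0.12 and -0.10 (adjusted permutation P = 0.70 for each). The part of library composition in the shared variation of Lrp2, Cubn and Clcn5 was not tested.

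**Figure D4:**
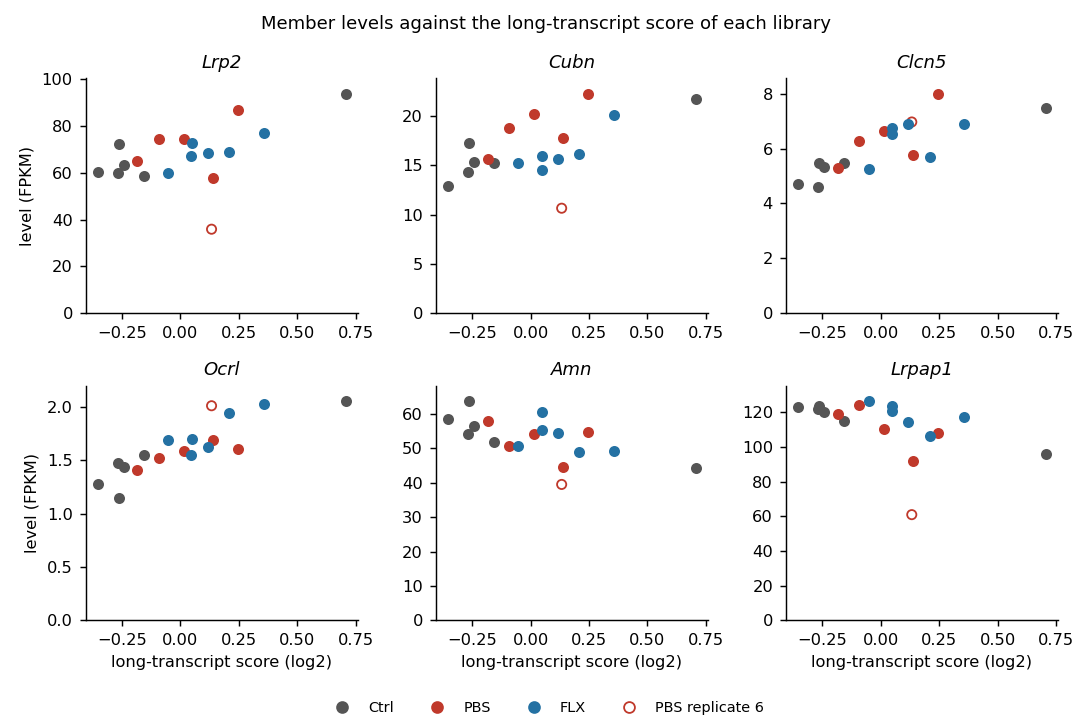
FPKM (vertical axes, from 0) against the long-transcript score of each library (horizontal axes, log2) for 6 genes, with 1 point per mouse, coloured by group, and an open circle for PBS replicate 6. Ctrl replicate 3, at a score of 0.706, has the highest Lrp2 and Ocrl and low Amn and Lrpap1.

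Outside the 9 genes, those most like Lrp2 over the 17 mice among 12090 genes of at least 1 FPKM were Slc5a9 (r = 0.88), Selenot (0.87), Ank3 (0.87), Pkp4 (0.87) and Tanc2 (0.86). Slc5a9 encodes a sodium-coupled sugar transporter and Ank3 an ankyrin of the membrane skeleton. Cubn, at 0.82, was less like Lrp2 than these, and its place among all genes compared was not counted. The values are a description over 17 libraries that share the differences in composition given above.

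The 90 other genes of receptor-mediated endocytosis, endosome and lysosome were examined as 5 lists, and all were tested. In PBS versus Ctrl 1 of 90 was called, against 3.81% of all genes, and 14 had an unadjusted p under 0.05, against 17.9% of all genes. It was Neu1, the lysosomal sialidase, at 129.6 ± 12.1 FPKM in Ctrl and 90.3 ± 5.82 in PBS (SD, n = 6 and n = 5), a log2 fold change of -0.52 (SE 0.11, adjusted p = 0.015). Neu1 kept its call when any 1 mouse was left out and with all 18 mice (adjusted p = 0.015). The median log2 fold change of the 26 lysosome genes was 0.02.

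In the same comparison the other lists had no gene called by edgeR. The 20 adaptors and coat proteins had a median of 0.10, and the 8 apical receptors, transporters and their partners 0.02. The 22 endosome and phosphoinositide genes had 0.02 and the 14 acidification genes 0.07. In this order 4, 2, 3 and 4 genes had an unadjusted p under 0.05. Over the 5 lists DESeq2 called 7 of 90 genes, against 6.98% of all genes. The lowest p values in them belonged to Picalm, a clathrin assembly protein (log2 fold change 0.27, adjusted p = 0.076), Fcgrt, the neonatal Fc receptor that recycles albumin and IgG (-0.27, adjusted p = 0.084), Rab11fip3, a recycling endosome effector (-0.33, adjusted p = 0.054) and Atp6ap2, an accessory subunit of the proton pump (0.31, adjusted p = 0.067), all by edgeR. With all 18 mice Rab11fip3 and Atp6ap2 passed (adjusted p = 0.035 and 0.038), while Fcgrt, at 166 FPKM in PBS replicate 6, had a log2 fold change of -0.05. The count over the 5 lists became 8 without Ctrl replicate 3, where 8.27% of all genes were called. It became 3 without PBS replicate 5 (3.34% of all genes). It became 2 without Ctrl replicate 1, PBS replicate 3, FLX replicate 3 or FLX replicate 4 (2.53% to 3.94% of all genes).

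In FLX versus PBS none of the 90 genes was called, against 0.726% of all genes, 9 had an unadjusted p under 0.05, against 11.1%, and DESeq2 called none, against 2.46%. Medians of the lists lay between -0.12 and -0.01. The lowest p values were those of Cltrn, the apical chaperone of amino acid transporters (log2 fold change -0.32, adjusted p = 0.16), Rab11a (-0.15, adjusted p = 0.35), Ap2m1, a subunit of the clathrin adaptor (-0.15, adjusted p = 0.40), Ctss, the lysosomal protease cathepsin S (0.45, adjusted p = 0.41), and Atp6ap2 (-0.19, adjusted p = 0.45).

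In FLX versus Ctrl 4 of 90 were called, against 3.67% of all genes, and 22 had an unadjusted p under 0.05, against 20.4%. Hip1, a clathrin and actin linker, was higher in FLX (log2 fold change 0.64, SE 0.13, adjusted p = 0.014), as was Atp6v0a2, a subunit of the endosomal proton pump (0.23, SE 0.06, adjusted p = 0.040). Pheta1, a partner protein of OCRL on endosomes, was lower (-0.53, SE 0.14, adjusted p = 0.044), and so was Neu1 (-0.47, SE 0.11, adjusted p = 0.024), at 99.2 ± 14.8 FPKM in FLX. Neu1 alone of these 4 passed with all 18 mice (adjusted p = 0.037), where Hip1 was at 0.065, Pheta1 at 0.067 and Atp6v0a2 at 0.095. Fcgrt missed the threshold (-0.28, adjusted p = 0.058). The number of genes called depended on single mice, with 21 without Ctrl replicate 3, where 15.4% of all genes were called. It was 2 without Ctrl replicate 1, Ctrl replicate 6, FLX replicate 4 or FLX replicate 6 (1.77% to 2.59% of all genes). It was 1 without Ctrl replicate 2, Ctrl replicate 5, FLX replicate 2 or FLX replicate 5 (1.35% to 2.33% of all genes).

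**Figure D5:**
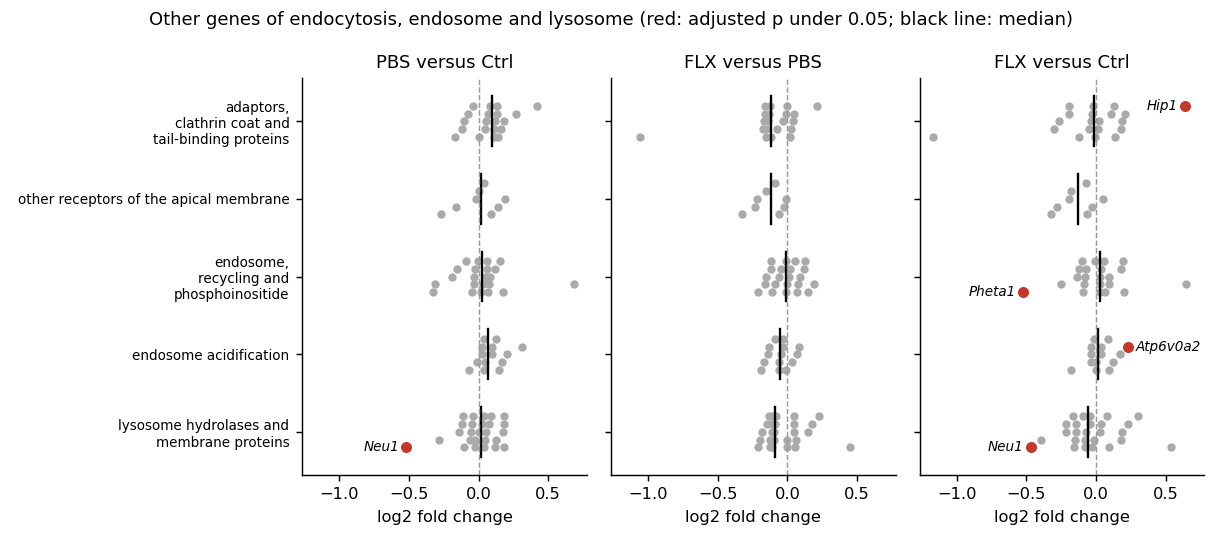
Log2 fold changes (horizontal axes) of the 90 other genes in 5 lists for the 3 comparisons over 17 mice. Each dot is a gene, red dots passed an adjusted p of 0.05 and black lines are list medians, which stay between -0.13 and 0.10. The list labelled other receptors of the apical membrane also holds transporters and their partners.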

How the data were processed

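Per the labels and the study's methods, poly(A) RNA of each kidney was sequenced in pairs of 150 bases. The authors describe cleaning by fastp, alignment by HISAT-3N against GRCm38 and transcript assembly by StringTie, whereas the submitters' processing notes name cutadapt 1.9, HISAT2 2.0.4, UMI-tools, StringTie 1.3.4d, DESeq2 and edgeR. The authors deposited FPKM and estimated counts, whole numbers, for 32675 genes in 18 mice. No source used here names the tool that gave the counts, and a count of 4 was held by a median of 720 genes per mouse, against 484.5 with 3, so the counts were taken as estimates.

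Counts were compared with edgeR 4.0.16 (quasi-likelihood test, TMM scaling, filterByExpr, 1 model over 3 groups, R 4.3.3). P values were adjusted over 20251 genes, with a threshold of 0.05. Single genes were also tested by an exact two-sided permutation test, and correlations by a two-sided permutation test of 100000 resamples. DESeq2 1.42.0 and limma 3.58.1 on log2(FPKM + 0.1) were alternatives, with other scalings, filters, pseudocounts and each mouse left out. The fit was tested on simulated data for PBS versus Ctrl, made with a common dispersion (spread between mice) of 0.122. It recovered 98% of 100 genes changed by 2 and 34% of 100 genes changed by 1 on the log2 scale. Among 19956 genes there were 6 false calls. These shares hold for that dispersion and do not give the power for the reabsorption genes. Fitted SEs of the latter in PBS versus Ctrl ran from 0.09 (Ctsb) to 0.13 (Clcn5).

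All 9 genes are named. From each pathway list up to 3 called genes of lowest adjusted p are named, or else the gene of lowest unadjusted p, and the 5 genes most like Lrp2. The genes and lists were chosen with earlier results of these data known. A gene of the lysosome list is not reported here. Symbols matched in all lists, 2 of them through an older name. Each mouse gave 1 library, and the labels name no batch, litter or day. Promoter sequences are from RefSeq.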

Additional observations from a re-analysis of the deposited data

Results flagged for a closer look

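Among 27 sets of 6 mice (9 genes in 3 groups, PBS replicate 6 included), 4 held a mouse far from the other 5 by Dixon's test. Chance gives such a distance in about 1 of 20 sets when sets are independent and values normal. The sets here share libraries, and Ctrl replicate 3 was the mouse for both Lrpap1 and Clcn5. PBS replicate 6 had already been set aside. The share over all genes was not counted, so an excess particular to these genes cannot be read from this number. Cubn in FLX replicate 6 was at 20.1 FPKM, above the 14.6 to 16.2 of the other FLX mice, and this library had the highest long-transcript score of its group (0.357). Lrpap1 in Ctrl replicate 3 was at 95.9 FPKM, below the 115 to 123 of the others, and Clcn5 in the same mouse was at 7.47 FPKM, above 4.61 to 5.49. That library had the highest score of all (0.706). Ctsb in PBS replicate 6 was at 173 FPKM, above the 99.0 to 111 of the other PBS mice, in the kidney with the lowest proximal tubule sum. The part of library composition or of cell content in these values was not tested.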

How the results depend on the processing

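Over the alternatives tried, the 27 log2 fold changes of the 9 genes kept their direction and their side of the threshold in 780 cases, passed the threshold in 6 and changed sign in 42, each of these for a difference that did not pass. Members called are given with the share of all genes called in brackets. In PBS versus Ctrl they became 1, Ctsb, with DESeq2 (6.98%) and without FLX replicate 5 (4.26%). In FLX versus PBS they became 1, Lgmn, with DESeq2 (2.46%), without Ctrl replicate 3 (1.24%) and without PBS replicate 2 (0.648%). There the long-transcript score as a covariate also gave 1, Cubn (1.43%). With each mouse left out both counts ran from 0 to 1. Members called stayed at 0 in FLX versus Ctrl (0.0183% to 15.4%). Other pathway genes called are given with the share of all genes called in brackets. In PBS versus Ctrl, 1 (3.81%) became 3 with all 18 mice (4.28%) or upper-quartile scaling (3.77%). It became 3 with limma at any of 3 pseudocounts (3.62% to 3.8%), 7 with DESeq2 (6.98%) and 0 with the replicate block (2.07%). It was 10 without the 2 mice of the highest score (8.6%) and 5 with the score as a covariate (5.5%). With both that covariate and 18 mice it was 4 (4.57%), and with each mouse left out 1 to 8 (1.88% to 8.27%). In FLX versus Ctrl, 4 (3.67%) became 1 with all 18 mice (1.77%) and 9 with DESeq2 (7.97%). It became 2 with no filter (1.18%) or only the groups compared (3.75%). It was 1 with the replicate block (1.27%) and 0 with FLX replicates 1 and 2 only (0.0183%). It was 15 without the 2 mice of the highest score (11.7%) and 1 with 18 mice and the covariate (1.66%). With each mouse left out it ran from 1 to 21 (1.35% to 15.4%). The cause was not tested.

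Changes of sign were as follows. In PBS versus Ctrl, Lrp2 became -0.0397 with all 18 mice and -0.0843 with the covariate added, Amn 0.0074 with the covariate and Dab2 0.0281 with all 18 mice. In FLX versus PBS, limma on FPKM at pseudocounts of 0.1, 1 and 0.01 gave 0.0235, 0.0231 and 0.0236 for Amn and 0.0025, 0.0022 and 0.0025 for Dab2. FLX replicates 1 and 2 alone gave 0.0949 for Amn and 0.0022 for Clcn5, no filter gave -0.0059 for Lrpap1, and 18 mice with the covariate gave 0.0366 for Amn and -0.0240 for Ocrl. In FLX versus Ctrl, limma gave 0.0397, 0.0390 and 0.0397 for Lrp2, 0.0228, 0.0210 and 0.0230 for Cubn and 0.0234, 0.0232 and 0.0235 for Lrpap1. FLX replicates 1 and 2 alone gave 0.0143 for Lrp2, 0.0399 for Amn and 0.0318 for Lrpap1, leaving out the 2 mice of the highest score gave 0.0088 for Lrp2, and the covariate gave 0.0438 for Lrpap1 with 17 and 0.0566 with 18 mice. With each mouse left out, the range in PBS versus Ctrl was -0.0087 to 0.184 for Lrp2, -0.128 to 0.0031 for Amn and -0.129 to 0.0020 for Lrpap1. It was -0.159 to 0.0234 for Dab2, -0.0683 to 0.0474 for Lrpap1 and -0.173 to 0.0048 for Clcn5 in FLX versus PBS, and -0.0997 to 0.0359 for Lrp2, -0.127 to 0.0135 for Cubn and -0.0244 to 0.0881 for Ctsb in FLX versus Ctrl. Correlations of Lrp2 in all 18 mice were 0.37 with Amn, -0.13 with Dab2, 0.56 with Lrpap1, 0.35 with Clcn5, -0.0177 with Ocrl, -0.54 with Ctsb and -0.48 with Lgmn. Without the 2 farthest mice they were 0.21 with Amn, 0.16 with Dab2 and 0.22 with Lrpap1, without Ctrl replicate 3 they were 0.20, 0.49 and 0.0383, and on log2 CPM it was 0.13 with Amn.

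Replicate numbers did not pair the mice, since deviations of same-numbered mice correlated above 0.1 in 0 of 5, 1 of 6 and 1 of 5 pairs, and 1 mouse in each of the 3 pairs of groups was closest to its own number. Under the replicate block no member was called and the adjusted p was 0.16 for Ctsb in PBS versus Ctrl, 0.17 for Lgmn in FLX versus PBS and 0.062 for Neu1 in PBS versus Ctrl. Over all genes, calls in FLX versus PBS went from 147 to 498 with DESeq2, 255 with limma and 250 without Ctrl replicate 3, and calls in FLX versus Ctrl from 422 higher and 322 lower to 979 and 235 with limma on FPKM. FLX replicates 3 to 6 had fewer counts than the other mice, which limits the precision of their values.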
